A study of Mus musculus with 4 samples.

Results

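The genes described here are 9 genes of myelin and of mature oligodendrocytes, Mbp, Mobp, Mog, Mag, Cnp, Opalin, Ugt8a, Cldn11 and Mal, taken by symbol from the 32285 genes listed in the count tables. All 9 were found and all 9 passed the filter on low counts in whole sections. On GRCm38.p6 they lie on chromosomes 18 (Mbp), 9 (Mobp), 17 (Mog), 7 (Mag), 11 (Cnp), 19 (Opalin), 3 (Ugt8a and Cldn11) and 2 (Mal). RNA was measured by 10x Visium on 10 µm cryosections of mouse brain, in which each barcoded spot captures RNA from a small region holding several cells. The series compared 2 control libraries with 2 knockout libraries to describe inflammatory and clotting genes in cerebral cavernous malformations, the leaky and widened vessels that form when brain endothelium loses Pdcd10 (Ccm3). Controls were Pdcd10fl/fl littermates with loxP-flanked Pdcd10 and no Cre, and knockouts were Slco1c1-iCreERT2;Pdcd10fl/fl mice (Pdcd10BECKO), in which a tamoxifen-regulated Cre under the control of a brain endothelial gene deletes Pdcd10. According to the design text, 50 µg of 4-hydroxytamoxifen was injected into the stomach on postnatal day 1 and brains were analysed on day 65. The deletion is therefore directed at endothelium and not at oligodendrocytes. Titles and design text place all libraries in normoxia, whereas a treatment label reads hypoxia for the knockouts and normoxia for the controls, and the treatment protocol of all 4 libraries gives 12% oxygen for 2 days. Where that label is right, oxygen and genotype cannot be told apart. Nothing in the labels says whether libraries of one genotype are from different animals, and p-values therefore measure only how these samples vary, which may be technical variation.

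Oligodendrocytes wrap axons of the central nervous system in myelin, a stack of compacted membrane. Myelin basic protein holds the inner faces of that membrane together, and its RNA is carried into the myelin sheath and translated there, as is that of Mobp. Precursor cells become newly formed and then mature oligodendrocytes, and the genes for late myelin proteins such as Mog and Opalin come on towards the end of that sequence under transcription factors that include Sox10 and Myrf.

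The control libraries held 50148764 and 64317838 unique molecular identifiers (UMIs, counted RNA molecules), and the knockout libraries 53514669 and 74467027. Spots with at least 1000 UMIs numbered 2931, 4096, 4599 and 4472 in control 1, control 2, knockout 1 and knockout 2, the order used for all values below, and their median depth was 15326, 16227, 8158 and 13165 UMIs. Pdcd10 itself was at 90.9, 82.2, 80.3 and 83.0 CPM (a gene's count scaled to a fixed library total), with overlapping groups, in sections where endothelium is a small part of the tissue. The deletion was therefore not visible in these sums. All 4992 barcodes were listed in all 4 libraries, being the barcode list of the slide and not shared cells. In the spots richest in Mbp the Schwann cell gene Pmp2 had 0 UMIs in every library. It had only 5, 6, 2 and 4 UMIs in whole sections, so this 0 says little. Pmp22, another peripheral myelin gene, had 243, 388, 183 and 207 UMIs in the spots richest in Mbp.

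All 9 genes were lower in the knockout sections, by factors from 1.72 for Mobp to 9.17 for Opalin, and all 9 passed edgeR's quasi-likelihood test at an adjusted p of 0.05. In the same test 38.4% of 17546 genes were called, 18.3% in the lower direction, and both knockouts lay below both controls in 35.9% of genes, so a call in itself was common. The median log2 difference was -1.61 over the 9 genes and 0.00 over all genes tested. In spots that pool several cells, fewer oligodendrocytes and less RNA per oligodendrocyte cannot be told apart from such levels. The plot of levels by library shows that the 9 genes did not fall alike.

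Among the genes of compact myelin, Mbp was at 3525, 5686, 2659 and 1661 CPM. Its knockout libraries lay below both controls, with a log2 difference of -1.09 ± 0.28 (SE; edgeR, adjusted p = 0.0192, n = 2 libraries per group). Mobp, which encodes a small basic protein of the compacted sheath, was at 833, 1303, 736 and 504 CPM, a difference of -0.78 ± 0.24 (edgeR, adjusted p = 0.0362). For both genes the log2 gap between the nearest control and knockout (0.41 and 0.18) was smaller than the widest spread within a group (0.69 and 0.65). DESeq2 called neither Mbp (adjusted p = 0.0636) nor Mobp (adjusted p = 0.142), and without knockout 2 edgeR's adjusted p for Mobp was 0.0646.

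The genes for proteins at the surfaces of the sheath differed more. Opalin, a transmembrane protein of oligodendrocytes, was at 84.5, 92.3, 9.55 and 9.72 CPM. Its log2 difference was -3.20 ± 0.08 (edgeR, adjusted p = 2.80e-06), and each group was tight against the gap between them. Mog, a surface protein of the outermost lamella, was at 181, 218, 43.6 and 36.9 CPM, a difference of -2.31 ± 0.12 (edgeR, adjusted p = 2.74e-05). Mag, an adhesion protein of the inner layer that faces the axon, was at 298, 380, 98.0 and 74.8 CPM, a difference of -1.97 ± 0.16 (edgeR, adjusted p = 0.000177). No control and knockout libraries overlapped for these 3 genes.

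The enzyme genes and the genes of junctions and traffic were lower as well. Ugt8a, which makes the galactosylceramide lipid of myelin, was at 85.5, 102, 20.8 and 18.2 CPM, and its log2 difference was -2.27 ± 0.11 (edgeR, adjusted p = 1.94e-05). Cnp, a phosphodiesterase of the cytoplasmic channels that remain within the sheath, was at 455, 561, 181 and 152 CPM, and its difference was -1.61 ± 0.13 (edgeR, adjusted p = 0.000174). Cldn11, the claudin of the tight junction strands that seal myelin, was at 345, 486, 203 and 183 CPM, with a difference of -1.11 ± 0.15 (edgeR, adjusted p = 0.00189). Mal, a proteolipid of vesicle traffic to the myelin membrane, was at 426, 501, 217 and 192 CPM, with a difference of -1.18 ± 0.11 (edgeR, adjusted p = 0.000302). The groups did not overlap for any of the 4 genes, but Cldn11 and Mal fell by factors of 2.15 and 2.27 where Ugt8a fell by a factor of 4.81.

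**Figure D1:**
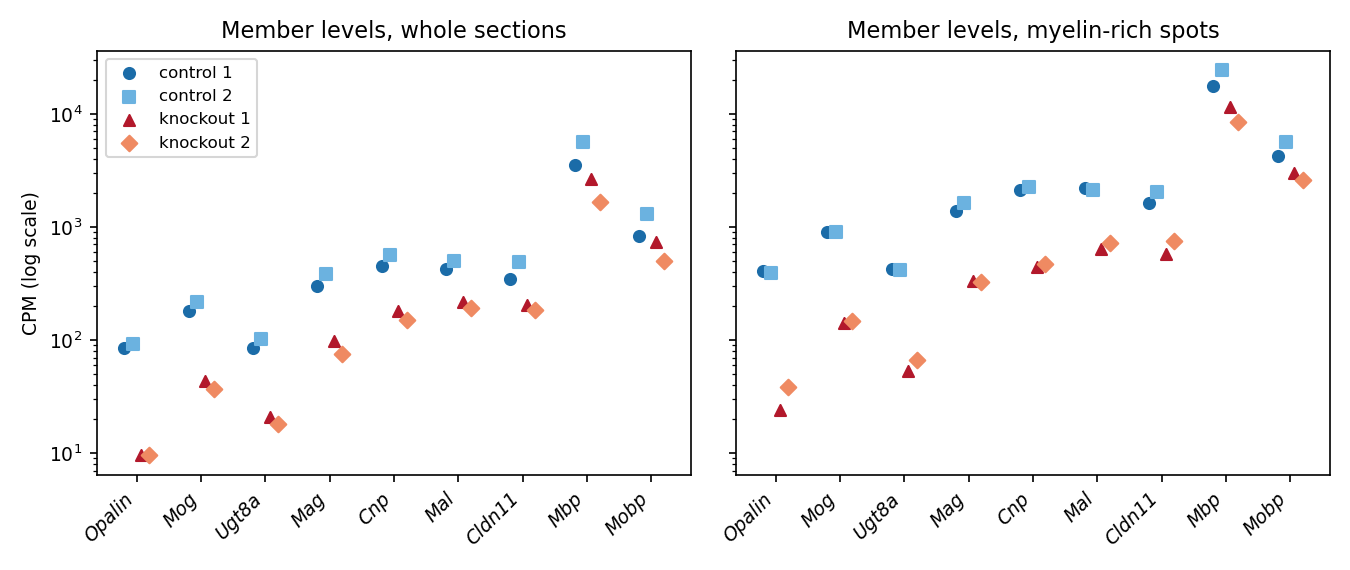
Level of each of the 9 genes in whole sections, in CPM on a log axis, with 1 point per library (2 controls and 2 knockouts, no error bars). Both knockout libraries lie below both controls for all 9 genes, by the smallest gap for Mobp (736 against 833 CPM) and by the widest for Opalin (9.72 against 84.5 CPM).

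Promoter sequences are shown for Opalin, Mog and Ugt8a, which fell most in whole sections, and for Mobp, which fell least. Each is the RefSeq window on GRCm38.p6 from 250 bases before to 50 bases after the annotated start, 5′ to 3′ on the gene's strand. The windows are chr19:41077064-41077363 on the minus strand for Opalin, chr17:37023349-37023648 on the minus strand for Mog, chr3:125938603-125938902 on the minus strand for Ugt8a and chr9:120149492-120149791 on the plus strand for Mobp. Capitals mark exact matches on either strand to the core letters of SOX factors (ACAAAG or ACAATG) and of Myrf (CTGGCAC or CTGGTAC).
Opalin: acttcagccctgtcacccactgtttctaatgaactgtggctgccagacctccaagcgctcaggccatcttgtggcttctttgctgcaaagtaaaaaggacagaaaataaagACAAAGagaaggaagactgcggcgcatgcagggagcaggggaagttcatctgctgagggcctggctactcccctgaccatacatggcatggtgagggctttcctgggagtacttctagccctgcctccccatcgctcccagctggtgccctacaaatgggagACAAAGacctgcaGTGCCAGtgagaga
Mog: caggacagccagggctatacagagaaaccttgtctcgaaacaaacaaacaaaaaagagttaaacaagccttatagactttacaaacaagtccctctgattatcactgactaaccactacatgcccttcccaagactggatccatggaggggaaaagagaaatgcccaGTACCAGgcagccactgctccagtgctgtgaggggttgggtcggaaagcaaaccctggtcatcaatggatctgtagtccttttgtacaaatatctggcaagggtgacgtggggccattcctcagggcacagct
Ugt8a: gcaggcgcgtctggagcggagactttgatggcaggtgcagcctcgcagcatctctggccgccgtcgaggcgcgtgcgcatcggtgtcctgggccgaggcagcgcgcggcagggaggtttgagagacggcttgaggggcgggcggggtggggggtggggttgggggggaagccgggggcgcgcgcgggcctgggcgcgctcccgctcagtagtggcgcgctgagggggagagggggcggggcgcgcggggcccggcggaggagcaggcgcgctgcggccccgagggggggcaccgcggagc
Mobp: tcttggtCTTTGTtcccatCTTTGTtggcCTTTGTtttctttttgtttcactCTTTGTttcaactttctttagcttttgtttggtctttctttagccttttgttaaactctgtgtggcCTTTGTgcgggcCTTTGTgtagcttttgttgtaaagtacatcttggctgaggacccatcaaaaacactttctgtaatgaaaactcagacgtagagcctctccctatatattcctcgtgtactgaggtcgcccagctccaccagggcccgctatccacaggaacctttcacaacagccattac
The Opalin window holds 2 SOX core matches and 1 Myrf core match, the Mog window 1 Myrf core match, and the Mobp window 6 SOX core matches in a stretch rich in T. Of 32851 promoter windows of this length 28.6% hold the SOX letters and 7.10% the Myrf letters. Among the 8 of these genes whose windows were examined, 4 hold the SOX letters and 4 the Myrf letters in at least 1 window, and the windows of Ugt8a, Mal and Cldn11 hold neither. The 2 sets of letters do not overlap in these windows, and a match describes the sequence only.

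To separate the amount of myelin RNA from its make-up, myelin-rich spots were taken in each library as the 8% of spots with the highest share of Mbp among spots of at least 5000 UMIs, which gave 181, 205, 236 and 277 spots. The lowest Mbp share inside the class was 1.34%, 1.69%, 0.898% and 0.657% of a spot's UMIs, and the next spot outside was at 1.34%, 1.69%, 0.897% and 0.656%. The class therefore began at a lower Mbp share in the knockouts. Its median depth was 12530, 18239, 13245 and 12840 UMIs. Over all spots of at least 5000 UMIs the median Mbp share was 0.224%, 0.367%, 0.112% and 0.0681%. Against 1 limit for all libraries, a share of 1.13%, 269, 471, 114 and 46 spots stood above, or 11.9%, 18.4%, 3.86% and 1.33% of spots.

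Within myelin-rich spots the 8 genes other than Mbp were again lower in both knockouts, and all 8 passed edgeR's test, where 24.3% of 12647 genes were called, 13.1% were called lower and 29.7% had both knockouts below both controls. Opalin stood at 405, 392, 23.8 and 38.2 CPM, a fall of 12.7-fold (edgeR, adjusted p = 3.61e-14). Ugt8a at 428, 418, 53.4 and 66.1 CPM and Mog at 896, 909, 142 and 148 CPM fell 7.04-fold and 6.23-fold. For these genes the controls lay within a few percent of each other and far above the knockouts. Cnp was at 2104, 2259, 438 and 465 CPM and Mag at 1371, 1638, 332 and 323 CPM, falls of 4.83-fold and 4.60-fold. Mal was at 2186, 2137, 633 and 723 CPM, and Cldn11 at 1617, 2022, 578 and 757 CPM. These last genes fell 3.19-fold and 2.73-fold, and the groups stayed apart. Mobp was at 4221, 5659, 2993 and 2581 CPM and fell 1.77-fold (edgeR, adjusted p = 3.73e-05). Mbp, which chose the spots and was not tested, was at 17775, 24367, 11378 and 8446 CPM. When the limit of 1.13% was used for every library, 5 of the 8 genes passed and Mobp was at a log2 difference of 0.18.

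The ratio of each gene to Mbp in the same spots passed edgeR's test between genotypes for some of the genes and not for others. With 2 libraries per group, not passing does not show that a ratio was the same. Such a ratio would stay the same with fewer oligodendrocytes of the same kind only if regions and Mbp shares of the spots were alike. The Mbp shares were not alike between the groups, and neither were the shares of region lists given to the spots. In control 1 and control 2, Cnp per 100 Mbp UMIs was 19.9 and 16.6 in spots of an Mbp share under 0.1%. It was 11.6 and 8.51 in their spots from 1% to 2%. Spots of equal Mbp share and of single region lists are described below. Per 100 Mbp UMIs, Opalin had 2.28, 1.61, 0.209 and 0.453 UMIs, from 902, 1416, 79 and 151 Opalin UMIs. The ratio was 6.22-fold lower in the knockouts, with a log2 difference of -2.56 ± 0.44 (SE; edgeR with the Mbp count as library size, adjusted p = 7.60e-07). Both knockouts lay below both controls by more than the spread within either group.

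Ugt8a had 2.41, 1.71, 0.469 and 0.782 UMIs per 100 Mbp UMIs, a ratio 3.35-fold lower (edgeR, adjusted p = 0.000833). Mog had 5.04, 3.73, 1.24 and 1.75, a ratio 2.94-fold lower (edgeR, adjusted p = 0.00177). Both genes kept the groups well apart. Cnp had 11.8, 9.27, 3.85 and 5.51, a ratio 2.27-fold lower (edgeR, adjusted p = 0.00857). Mag had 7.71, 6.72, 2.92 and 3.83, a ratio 2.16-fold lower (edgeR, adjusted p = 0.0142). In these genes too the higher knockout lay below the lower control.

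The other 3 genes did not pass. Mal had 12.3, 8.77, 5.56 and 8.56 UMIs per 100 Mbp UMIs (edgeR, adjusted p = 0.153), and knockout 2 lay just under control 2. Cldn11 had 9.10, 8.30, 5.08 and 8.96 (edgeR, adjusted p = 0.444), and the groups overlapped. Mobp had 23.7, 23.2, 26.3 and 30.6, higher in both knockouts by a factor of 1.21 that did not pass (log2 difference 0.28 ± 0.34; edgeR, adjusted p = 0.450).

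The 5 calls of 8, all lower, stand against 66.4% of 12647 genes called relative to Mbp, of which 0.538% of the genes tested were lower and 65.9% higher. Since Mbp itself was lower, the median gene had a log2 difference of 1.11 in this comparison, and the median of the 8 genes was -1.14. Both knockouts lay below both controls in 1.47% of all genes and above both in 87.1%. The count of Mbp in each library enters every ratio, so the genes share an error that the fit treats as independent and its p-values may be too small. The two-sided exact permutation test of 2 against 2 libraries gave p = 0.333 for each of the genes whose groups stood apart, the smallest value it can give. Opalin passed edgeR's test when any single library was left out (adjusted p from 0.00153 to 0.0293), and Ugt8a was the only other gene to pass in any of these fits, without control 1. Of the genes to fall relative to Mbp at a mean of at least 100 CPM with the groups apart, 16 in all, Opalin had the steepest fall, followed by Gamt, a creatine synthesis enzyme, Pllp, a proteolipid related to Mal, Pdlim2, Ugt8a and Mog.

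**Figure D2:**
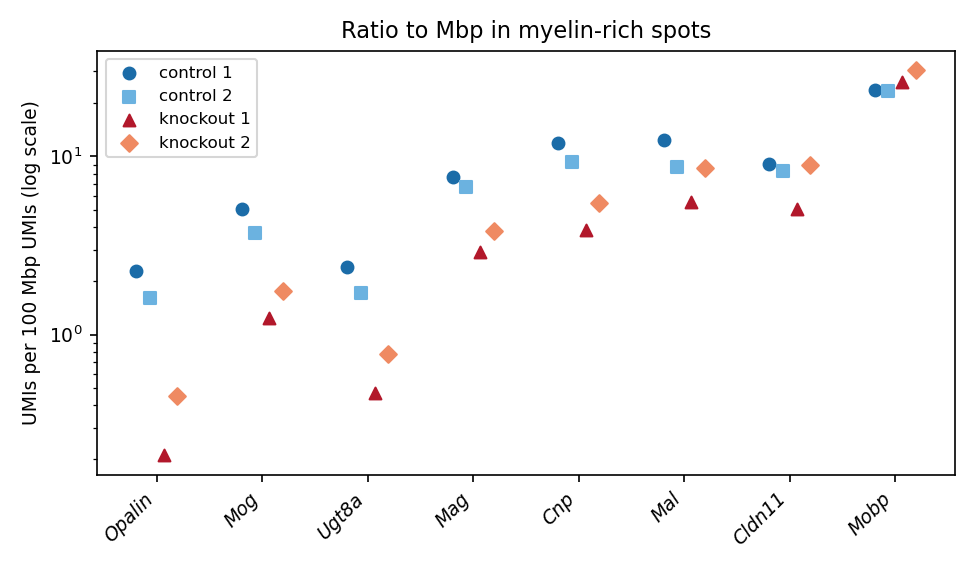
UMIs of each gene per 100 Mbp UMIs in myelin-rich spots, on a log axis, with 1 point per library (2 controls and 2 knockouts, no error bars). Opalin, Mog, Ugt8a, Mag and Cnp lie lower in both knockouts, Cldn11 overlaps (8.96 in knockout 2 against 8.30 in control 2), and Mobp lies slightly higher in both knockouts.

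The fall of Opalin was spread over most of the myelin-rich spots. In the controls 3.87% and 2.44% of these spots held no Opalin UMI, and in the knockouts 75% and 63.9% held none. After each spot was thinned to 5000 UMIs, an Opalin UMI remained in 86.7%, 78%, 10.6% and 17.7% of myelin-rich spots. At equal depth, too, no library of one group reached the range of the other. Spots with a ratio to Mbp above the lower of the controls' 10th percentiles made up 19.9% and 31.8% of the knockouts' myelin-rich spots for Opalin, 21.6% and 35.4% for Mog, and 90.3% and 96.0% for Mobp. Controls held at least 89.5% by construction of that limit, and at most 93.4% for these 3 genes. For Ugt8a the median myelin-rich spot had 2.16, 1.5, 0 and 0.592 UMIs per 100 Mbp UMIs. For Cnp it had 11.3, 8.26, 3.50 and 5.17, so a middle spot of either knockout was below a middle spot of either control.

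Spots of equal Mbp share gave the same order for Opalin. In spots where Mbp made up from 0.5% to 1% of UMIs, Opalin had 2.31, 1.62, 0.332 and 0.481 UMIs per 100 Mbp UMIs, over 440, 500, 475 and 416 spots. In spots from 1% to 2% it had 2.21, 1.38, 0.229 and 0.434, over 287, 423, 172 and 61 spots. In spots under 0.1%, over 750, 368, 1404 and 2025 spots, it had 3.10, 1.99, 0.605 and 1.05. The knockouts were below both controls in all 6 bins of Mbp share, of which the highest, at 2% or more, held only 8 and 5 knockout spots. Cnp behaved otherwise at the low end. Its ratio was 19.9, 16.6, 20.8 and 22.4 in spots under 0.1% and 11.6, 8.51, 3.76 and 5.41 in spots from 1% to 2%, so both knockouts lay above both controls in the lowest bin and below both in the 5 bins from 0.1% upwards. Mobp was at 24.3, 23.6, 26.3 and 28.6 in spots from 0.5% to 1%, slightly above the controls in both knockouts. How many of all genes lay apart in this way was not computed per bin.

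**Figure D3:**
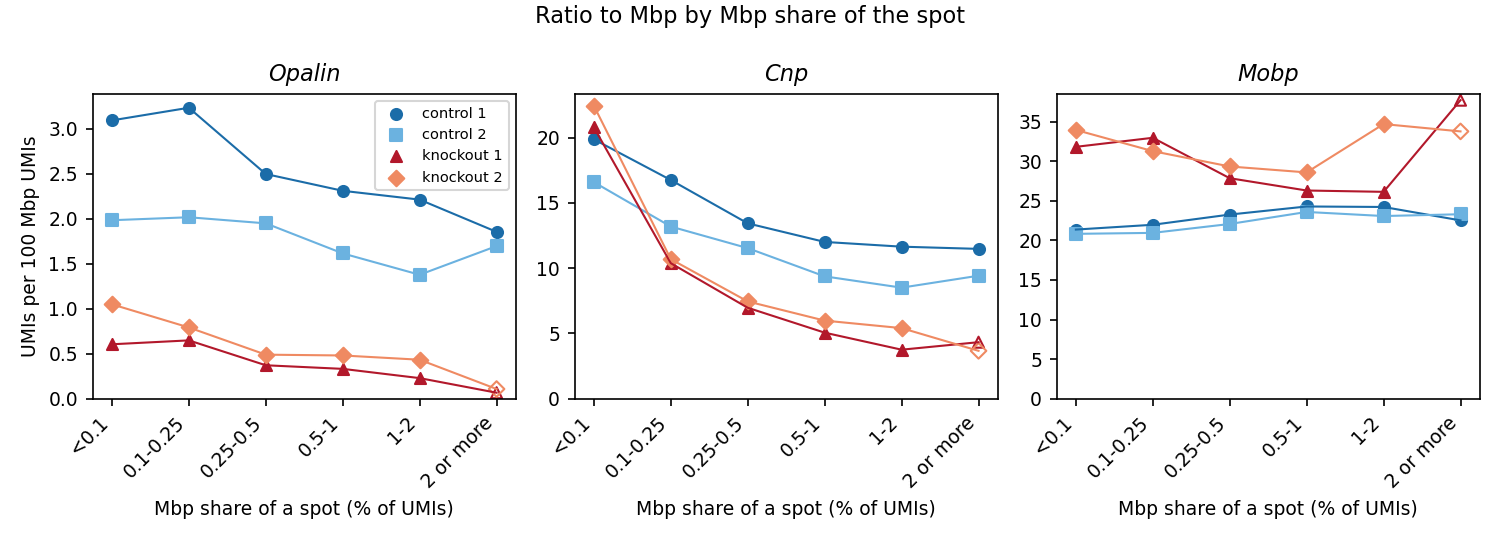
UMIs of Opalin, Cnp and Mobp per 100 Mbp UMIs in spots grouped by their Mbp share (% of UMIs), 1 line per library, for spots of at least 5000 UMIs, with open symbols for bins of fewer than 20 spots. The Opalin lines of the knockouts lie below those of the controls in every bin, and the bin at 2% or more rests on 8 and 5 knockout spots.

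The difference between genotypes was itself set against spot class, comparing myelin-rich spots with all other spots of at least 5000 UMIs and keeping the library as a block. The fall was steeper in myelin-rich spots for 6 of the 8 genes, where 9.32% of 16710 genes were called and 5.49% in that direction. Cnp had the widest gap, with a log2 difference of -2.28 in myelin-rich spots and -1.48 elsewhere (difference -0.80 ± 0.09; edgeR, adjusted p = 9.02e-10). Ugt8a fell further by 0.67 on the log2 scale (edgeR, adjusted p = 0.000157). Mal fell further by 0.61 (adjusted p = 1.80e-06), Opalin by 0.60 (0.00371), Cldn11 by 0.42 (0.00277) and Mog by 0.41 (0.00790), all from edgeR's test. The difference did not pass for Mag (-0.28, edgeR adjusted p = 0.0625) or Mobp (-0.04, edgeR adjusted p = 0.861). After each spot was thinned to 5000 UMIs, Mog (-0.06) and Opalin (-0.60) no longer passed, and without knockout 1 only Cnp and Mal did. Opalin also did not pass when the spots were chosen by their Mobp share (-0.39, edgeR adjusted p = 0.0754) or their Cnp share (-0.29, edgeR adjusted p = 0.183), choices added after seeing the data. With the Mobp share, Mog (-0.19) and Cldn11 (-0.11) did not pass either. Outside the myelin-rich class the ratio of Cldn11 to Mbp overlapped between the groups (9.96, 8.52, 8.21 and 11.5 UMIs per 100 Mbp UMIs). That of Mal (12.0, 8.75, 8.84 and 12.4) overlapped too, as did that of Cnp (13.2, 9.95, 7.69 and 10.3). Within the class the Cnp ratio was lower in both knockouts. The ratios of Opalin (2.43, 1.63, 0.411 and 0.634), Mog, Mag and Ugt8a outside the class were lower in both knockouts, and that of Mobp was higher. Outside the class the share of all genes apart in this way was not computed. Within it, 87.1% of all genes lay above both controls in both knockouts relative to Mbp, and 1.47% below.

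**Figure D4:**
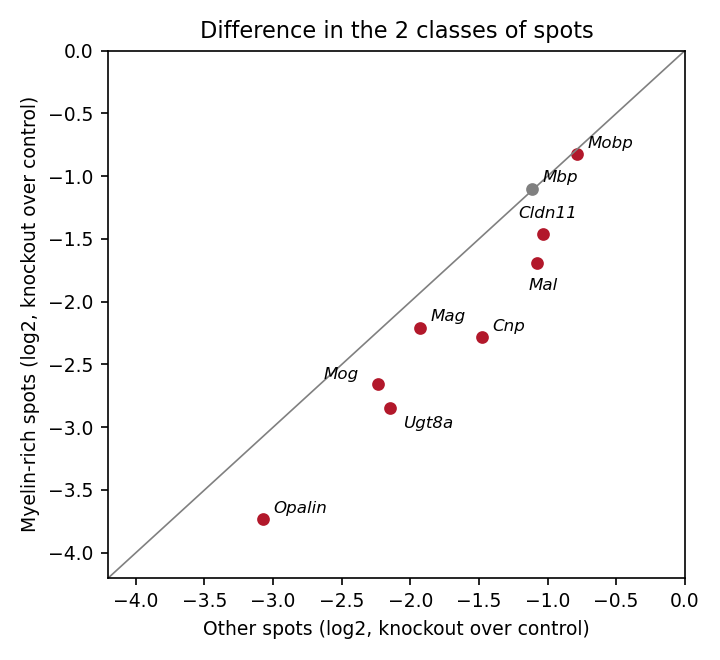
Log2 difference between knockout and control of each gene in myelin-rich spots against that in all other spots of at least 5000 UMIs, 1 point per gene, with Mbp, which chose the spots, in grey and the line marking equal differences. Mobp lies on the line of equal difference, and Cnp lies farthest below it (-2.28 against -1.48).

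The mix of brain regions was examined by giving every spot with 5000 or more UMIs the region list whose genes were highest in it. No minimum score was set and no spot was placed in the section. A different mix of regions and a change in the listed genes themselves therefore cannot be told apart in the shares of the lists. Spots of the cortex list made up 30.2%, 30.3%, 19.8% and 21.0% of spots, and of the myelin-rich spots 12.7%, 14.1%, 2.54% and 3.61%. Spots of the midbrain and hindbrain list made up 25.4%, 31.7%, 41.9% and 39.7% of the myelin-rich spots. With each of the 6 region lists fitted on its own, 8 of the 9 genes fell in all 6 and Mobp fell in 4, while the share of all genes called lower was 19.4% in the cortex, 13.2% in the hippocampus, 13.9% in the hypothalamus, 7.11% in the midbrain and hindbrain, 9.41% in the striatum and 10.5% in the thalamus list. The log2 difference of Opalin lay between -3.78 and -2.89 over the lists. Over all spots of a list, the ratio of Opalin to Mbp was lower in both knockouts than in both controls in all 6, by factors from 3.40 in the cortex list to 4.91 in the midbrain and hindbrain list. In the cortex list it was 3.01, 1.97, 0.631 and 0.812 UMIs per 100 Mbp UMIs, and in the midbrain and hindbrain list 2.01, 1.55, 0.257 and 0.504. Mog, Mag and Ugt8a were also lower relative to Mbp in all 6, and Mobp was higher in all 6, reaching 24.2, 23.0, 33.7 and 36.2 in the cortex list. The ratio of Mal overlapped in all 6 lists and that of Cldn11 in 4. That of Cnp was lower in both knockouts in 3 lists and overlapped in 3, at 15.1, 11.1, 12.3 and 13.3 in the cortex list. The share of all genes apart in this way was not computed per list. In myelin-rich spots it was 87.1% above and 1.47% below both controls. In edgeR's test relative to Mbp, Opalin passed in 4 of the lists and did not in the hippocampus list (adjusted p = 0.173) or the striatum list (adjusted p = 0.328). Mog and Ugt8a passed in the midbrain and hindbrain list and the thalamus list, Mag and Cnp in the thalamus list, and Mobp did not pass in any of the 6.

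**Figure D5:**
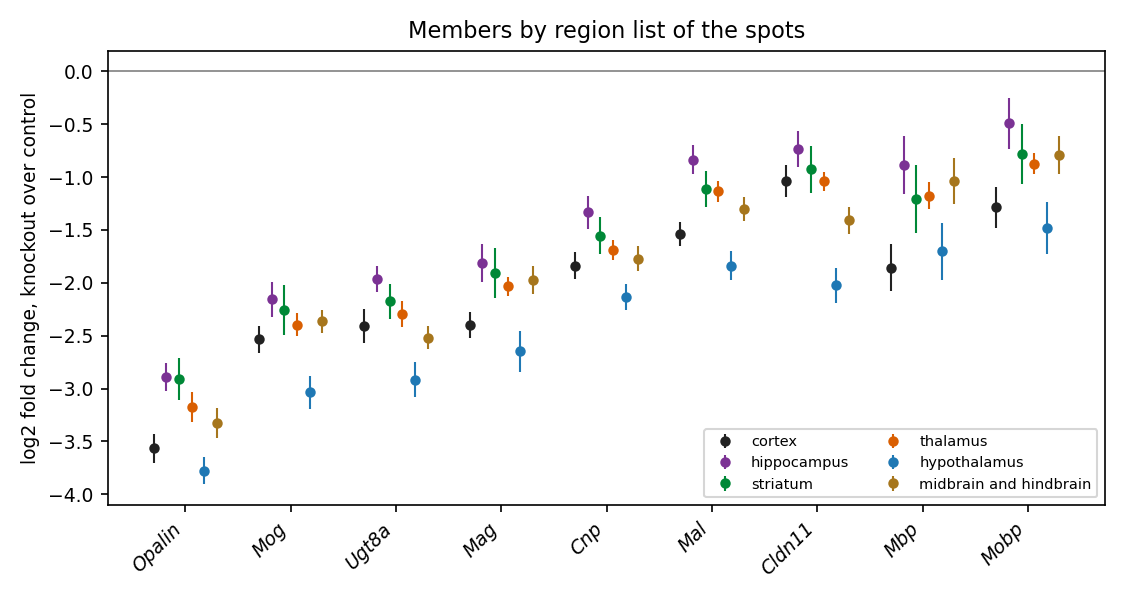
Log2 fold change of knockout over control for each of the 9 genes in the spots of each region list, 1 point per list, with bars of 1 SE from edgeR (2 libraries per group). All points lie below 0, those of Opalin between -3.78 and -2.89 and those of Mobp between -1.48 and -0.49, the Mobp points of 2 lists being short of the threshold.

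Other genes of mature oligodendrocytes moved with these 9. Of 33 such genes, 28 fell, 1 rose and 4 did not pass in whole sections, with a median log2 difference of -1.21 against 0.00 over all genes. Gamt was at 49.7, 54.6, 8.60 and 9.73 CPM and fell 5.68-fold, and Pllp was at 96.1, 123, 24.0 and 22.2 CPM and fell 4.75-fold. Ppp1r14a, an inhibitor of myosin phosphatase, fell 3.70-fold, and Fa2h, which makes hydroxylated fatty acids for myelin lipids, fell 2.58-fold. Relative to Mbp in myelin-rich spots 8 of the 33 fell and 1 rose, and 24 did not pass, against 0.538% of all genes that fell and 65.9% that rose. The list was drawn up with these data known.

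Genes of earlier stages moved less uniformly. In whole sections, where 18.3% of all genes fell and 20.1% rose, 6 of 8 tested genes of newly formed oligodendrocytes fell and 1 rose. Enpp6, a choline phosphodiesterase that marks this stage, was at 15.5, 16.5, 3.56 and 2.99 CPM and fell 4.92-fold, and the receptor gene Gpr17 was at 36.8, 43.4, 19.2 and 16.2 CPM and fell 2.28-fold. Of 11 oligodendrocyte transcription factor genes 7 fell and 1 rose, with a median of -0.54. Sox10, which switches on myelin genes, was at 36.4, 43.6, 23.9 and 23.3 CPM, 1.70-fold lower, and Olig1, a factor of the whole lineage, was at 186, 235, 136 and 109 CPM, 1.72-fold lower. Relative to Mbp in myelin-rich spots 1 of the 11 passed, the zinc finger gene Zfp24, which rose, against 65.9% of all genes that rose and 0.538% that fell there. In whole sections again, of 8 precursor genes 3 fell, 2 rose and 3 did not pass, with a median of 0.06. The shares of all genes there were 18.3% lower and 20.1% higher. C1ql1, a secreted protein of precursors, was at 24.0, 26.9, 12.1 and 15.7 CPM and fell 1.82-fold. Vcan, of the same list, was at 9.39, 10.9, 13.7 and 13.0 CPM and rose 1.32-fold. The summed level of the 8 precursor genes overlapped between the groups. It was 257, 295, 316 and 293 CPM in whole sections and 381, 369, 383 and 365 CPM in myelin-rich spots.

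Most genes of a list tied to oligodendrocytes in disease rose while the 9 fell, in whole sections that hold all cell types. Of 11 genes known to rise in oligodendrocytes in disease 8 rose and 1 fell, where 20.1% of all genes rose, with a median log2 difference of 1.42. The cell cycle inhibitor gene Cdkn1a was at 12.2, 11.9, 79.2 and 64.3 CPM, a rise of 5.95-fold. Serpina3n, a protease inhibitor that reactive astrocytes also make, rose 23.2-fold. The gene of this list to fall was Il33, an alarmin of oligodendrocyte nuclei, at 33.9, 40.4, 19.4 and 17.7 CPM. Apod, a lipid carrier of mature oligodendrocytes and of some other cells, rose from 285 and 356 to 1561 and 1455 CPM, 4.71-fold (edgeR, adjusted p = 4.01e-05). In myelin-rich spots it stood at 1032, 1094, 4836 and 6087 CPM. Between myelin-rich and other spots, the genotype difference was lower in myelin-rich spots for 5 of the 11 disease genes and higher for 1. The median was -0.31, where 9.32% of all genes were called and 5.49% lower. Which cells carried these rises was not tested.

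The other cells sharing the myelin-rich spots differed between the groups as well. The summed level of 8 reactive astrocyte genes there was 237, 272, 793 and 1109 CPM, with 7 of the 8 called higher where 11.2% of all genes were, and that of 6 endothelial genes was 255, 221, 590 and 607 CPM, with all 6 called higher. The summed level of 10 neuronal genes was 3737, 3672, 4786 and 5242 CPM, with 4 called higher and 2 lower. Snap25, a synaptic gene, was at 1548, 1452, 2381 and 2717 CPM. The 2 called lower were Nrgn, at 394, 469, 176 and 247 CPM, and Slc17a7, at 149, 190, 64.0 and 105 CPM. The 8 microglia genes summed to 565, 540, 530 and 732 CPM, with 2 called in each direction. Of the marker lists examined in these spots, only the peripheral myelin list had a gene at 0 in every library, Pmp2. The 10 genes of that list summed to 130, 132, 76.5 and 77.5 CPM. The part of all these other cells in the falls of the 9 genes was not tested.

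Serpina3n was used to divide each library's myelin-rich spots at the middle of its level. In both controls the lower division was at 0 CPM, and spots without a Serpina3n UMI also filled part of the upper division. Such spots were divided by barcode order, so the control divisions do not separate low from high Serpina3n. Opalin per 100 Mbp UMIs was 0.188 in the lower and 0.234 in the upper division of knockout 1, and 0.429 and 0.477 in those of knockout 2. Serpina3n itself was at 59.1 CPM in the lower division of knockout 1 and higher in that of knockout 2, both above the upper divisions of the controls (34.9 and 27.5 CPM), and its part in the ratio was not tested. Cldn11 differed between the divisions, at 3.48 and 6.92 in knockout 1 and at 5.22 and 13.0 in knockout 2, against 8.67 and 9.53 in control 1 and 8.59 and 7.99 in control 2. In the lower division Cldn11 was thus below both controls in both knockouts. Mobp was at 24.2 and 28.7 in knockout 1 and at 27.3 and 34.0 in knockout 2. These are levels of 1 library each, with no test.

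Within each library the 9 genes followed one another from spot to spot, less closely in the knockouts. Over spots of at least 5000 UMIs (2267, 2557, 2952 and 3468), each thinned to that number, the correlation of Mbp with Mobp was 0.875, 0.880, 0.842 and 0.817. That of Mbp with Opalin was 0.521, 0.488, 0.167 and 0.181, and that of Mbp with Mog 0.692, 0.654, 0.382 and 0.399. These values share library and depth, and lower counts alone lower a correlation, so they are given as a description. Among 7635 genes of at least 20 CPM, Plekhb1, Scd2, Fth1, Bcas1, Apod, Tspan2 and Trf were among the 8 outside the 9 whose level was most like their sum across spots, with a mean r over the 4 libraries from 0.786 to 0.726. Apod thus followed the sum of the 9 genes in all 4 libraries (r = 0.728, 0.697, 0.781 and 0.754) while its level went the other way. Fth1 also rose in whole sections (log2 difference 0.60, edgeR adjusted p = 0.00876). Plekhb1 (-0.60, edgeR adjusted p = 0.0524) and Scd2 (-0.23, edgeR adjusted p = 0.258) did not pass. The sum followed Mbp closely (r = 0.991, 0.994, 0.978 and 0.969) and Opalin less closely (0.741, 0.725, 0.284 and 0.340).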

How the data were processed

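The authors deposited UMI counts of each gene at each barcode, not normalised, for 4992 barcodes and 32285 genes per library. Per the submitters' processing notes, Space Ranger and mm10 were used, and per the file headers the matrices come from Cell Ranger version 4; the annotation release is not given in the sources used here. Spot positions and images were not used here, so no call of tissue was made, and no spot was placed in the section. Depth was 50148764 to 74467027 UMIs per library.

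Counts were summed per library over spots of at least 1000 UMIs, or over myelin-rich or other spots of at least 5000 UMIs, and tested with edgeR 4.0.16 in R 4.3.3 (TMM, filterByExpr, quasi-likelihood test, Benjamini-Hochberg adjustment over all genes tested, threshold 0.05). For ratios to Mbp the Mbp count served as the library size. CPM are scaled by TMM-adjusted library totals, except the sums over marker lists and the values of Snap25, which use the plain total. An SE is the fitted log2 difference divided by the square root of its F statistic. On simulated data with known answers, 100 genes were changed at each size. The ratio fit recovered 77% of 2-fold and 97% of 4-fold changes among 12597 genes tested. In that simulation Mbp was level between the groups and all genes were given the same dispersion. Mbp was lower in the real knockouts, so recovery for the real ratios to Mbp was not measured.

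The genes, gene lists and tests were chosen with earlier results of these data known. Named genes are the 9, up to 4 genes per list with the smallest p, the 8 most alike across spots, and the 6 largest rises and falls relative to Mbp. Replicates of a group differed beyond sampling noise (chi-square per degree of freedom of 53.3 and 16.7). Other tools were Python 3.11.15, numpy 2.4.6, scipy 1.17.1, pandas 2.3.3, matplotlib 3.10.9 and DESeq2 1.42.0. Gene positions and promoters came from RefSeq tables on GRCm38.p6, without a genome. Alternatives covered libraries, filters, depth, tool, spot class, region and reference. Values of certain other genes, and alternatives that rest on them, are left out.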

Additional observations from a re-analysis of the deposited data

Results flagged for a closer look

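Of the 8 genes tested besides Mbp, 6 are listed here because the difference between genotypes itself differed between myelin-rich and other spots in edgeR's test. The difference of log2 differences, myelin-rich minus other spots, was -0.80 for Cnp, -0.67 for Ugt8a, -0.61 for Mal, -0.60 for Opalin, -0.42 for Cldn11 and -0.41 for Mog. In each case the knockout libraries lay further below the controls in myelin-rich spots than elsewhere. The median depth of the myelin-rich spots was 12530, 18239, 13245 and 12840 UMIs in control 1, control 2, knockout 1 and knockout 2, and that of the other spots was 19322, 22952, 13869 and 17439. After each spot was thinned to 5000 UMIs, 4 of the 6 passed, and Opalin (-0.60) and Mog (-0.06) did not.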

How the results depend on the processing

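Over the alternatives reported, the count of the 9 genes called in whole sections stayed between 7 and 9, and that in myelin-rich spots between 5 and 8, the lowest being 5 with 1 limit of Mbp share for all libraries. The count relative to Mbp, 5 of 8, was the least stable. It ranged from 1 to 2 when each library was left out in turn, and was 1 in the cortex and hypothalamus lists, 0 in the hippocampus and striatum lists by edgeR (1 at an unadjusted p under 0.05 in each), 3 in the midbrain and hindbrain list and 3 with at least 10000 UMIs per spot. With the replicate number as a block it was 0 by edgeR (2 at an unadjusted p under 0.05), and Opalin did not pass (edgeR, adjusted p = 0.0831). Whether libraries of the same number form pairs is not known, and the correlation of same-numbered deviations (-0.12) cannot settle it. No paired fit was made for the difference between spot classes, where the library is the block. With the replicate numbers crossed, added after seeing the data, the count was 8, of which 1 was higher. The crossed pairing was picked because that correlation was negative in these same data, so its count is no independent check. The count for the difference between spot classes, 6 of 8, ranged from 2 to 7 with each library left out, and was 3 with the top 15% of spots and 3 of 7 with spots chosen by Mobp share, an alternative added after seeing the data. The causes were not tested.

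Signs turned in these cases among the alternatives reported, on the log2 scale. Relative to Mbp, Cldn11 ranged from -0.775 to 0.0430 with each library left out, and was at 0.80, 0.17, 0.29 and 0.15 in the cortex, hippocampus, striatum and thalamus lists and 0.0785 with spots chosen by Cnp share, also added. Mal was at 0.26, 0.0246, 0.0413 and 0.0445 in the same 4 lists. Mobp turned to 0.18 in myelin-rich spots with 1 limit, and for the difference between classes to 0.0338 without control 1, 0.16 without knockout 1 (-0.206 without knockout 2) and 0.0722 after thinning.

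Counts over all genes moved by over 1.5 times in these cases. In whole sections 6739 genes became 3222 after thinning and 1846 to 4144 in the region lists other than cortex. In myelin-rich spots 3067 became 1733 without control 2, 1607 after thinning, 1311 with DESeq2 and 1087 with 1 limit. Relative to Mbp 8397 became 201 to 5230 with a library left out, 290 with the replicate block, 13476, 526, 411 and 12679 in the cortex, hippocampus, striatum and thalamus lists, 3228 with at least 10000 UMIs and 1562 with 1 limit. For the difference between classes 1558 became 1037 without control 2, 852 without knockout 1, 826 after thinning and 967 with spots chosen by Mobp share.

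Limits are the 2 libraries per group, the unplaced spots and the low counts of Opalin in myelin-rich knockout spots, 79 and 151 UMIs.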

Other observations

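Among genes that rose relative to Mbp in myelin-rich spots at a mean of at least 100 CPM with the groups apart, 1126 in all, the 6 with the largest rises were Cartpt, Serpina3n, Pglyrp1, Spp1, Apod and Vim. Serpina3n was at 18.0, 14.1, 218 and 375 CPM in control 1, control 2, knockout 1 and knockout 2, and Pglyrp1, a peptidoglycan recognition protein, at 26.5, 21.8, 166 and 191 CPM. Spp1 (osteopontin), made by activated phagocytes, was at 39.1, 30.1, 182 and 231 CPM, and Vim, an intermediate filament gene of reactive astrocytes and vessels, at 52.1, 57.3, 188 and 328 CPM. Cartpt, a neuropeptide gene, was at 14.8, 11.1, 611 and 41.3 CPM, so that knockout 1 carried most of its rise.

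Cldn11 was uneven within the knockouts. With a limit of 20 Cldn11 UMIs per 100 Mbp UMIs, chosen after its values were seen, 1, 0, 7 and 35 myelin-rich spots stood above. In those of the knockouts the 8 reactive astrocyte genes summed to 5547 and 5235 CPM, against 680 and 617 CPM in the other myelin-rich spots, and the 8 leptomeningeal genes to 119 and 59.0 CPM, against 62.7 and 56.6 CPM. These are sums over few spots of 1 library each, with no test.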
